A study of Mus musculus with 6 samples.

Results

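Claudins are a family of small membrane proteins that form the strands of the tight junction. 10 claudin genes were followed in mouse stomach corpus (Cldn1, Cldn2, Cldn3, Cldn4, Cldn7, Cldn10, Cldn12, Cldn15, Cldn18 and Cldn23), out of 18988 rows of genes in the expression table. All 10 were found by symbol. They were selected on their FPKM in these same 6 libraries and on the difference between the genotypes compared here, so those differences are given as a description, without p-values. The corpus is the body of the stomach, which secretes acid and pepsinogen. RNA was sequenced from 3 mice of the genotype PGC;Ras;APC FF (the PGC mice, replicates 4 to 6) and 3 of the genotype Ras;APC FF (the controls, replicates 1 to 3), all on a C57BL/6 background and each giving a library of its own. What PGC and FF stand for is not written out in the labels, which also name no promoter, Cre, induction scheme, age or sex. Both groups carry the Ras and APC FF components, so the comparison asks what differs in the corpus when PGC is added. Levels are in FPKM, which divide a gene's fragments by its length and by the library's total, so that genes can be compared with each other.

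Claudins of neighbouring cells pair across the space between them and decide what passes. Some, such as claudin-3 and claudin-4, mainly seal, while others, such as claudin-2, claudin-10 and claudin-15, form pores for ions. Claudin-18 is the main claudin of gastric epithelium, where it holds back acid. Scaffold proteins of the ZO family, encoded by Tjp1 to Tjp3, tie claudins to the actin cytoskeleton.

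The libraries differed beyond the claudins. The chief cell gene Pgc, the colipase gene Clps and the phospholipase gene Pla2g1b together held 32.7%, 31.7% and 6.36% of summed FPKM in PGC replicates 4 to 6, against 48.1%, 43.9% and 34.9% in control replicates 1 to 3. The median FPKM of tested genes was at least 7.67 in each PGC library and at most 6.97 in each control. The Y-linked Eif2s3y was read at 13.15 FPKM in control replicate 3 and at 0 in the other 5 libraries, and Xist was at 0 in that control alone, so the sexes were not balanced. PGC replicate 6 thus stood apart from the other 5 libraries, and results are also given without it. Depth in reads is unknown.

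Of the 10 claudins, Cldn2, Cldn3, Cldn4 and Cldn7 stood out. Each lay below 1 FPKM in all 3 controls and above it in all 3 PGC;Ras;APC FF libraries. Among these was Cldn4, which encodes a sealing claudin (chromosome 5, 134945119 to 134946934, minus strand, mm10). Cldn4 had 19.13, 5.14 and 57.51 FPKM in PGC;Ras;APC FF replicates 4, 5 and 6, against 0.15, 0.09 and 0.06 FPKM in Ras;APC FF replicates 1, 2 and 3. The groups did not overlap, and the lowest PGC;Ras;APC FF library was 34.3 times the highest control. The log2 change, PGC;Ras;APC FF minus Ras;APC FF on the log2(FPKM + 1) scale, was 4.14 ± 0.69 (SE, n = 3 each), the largest of the 10 with all libraries. Without PGC;Ras;APC FF replicate 4 Cldn2 came first (4.304, against 4.11 for Cldn4).

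Cldn3 lies next to Cldn4 (chromosome 5, 134986214 to 134987472, plus strand). Like claudin-4, claudin-3 seals the paracellular space and binds the enterotoxin of Clostridium perfringens. Cldn3 had 16.96, 5.55 and 43.62 FPKM in PGC replicates 4 to 6, against 0.68, 0.44 and 0.63 FPKM in control replicates 1 to 3. Here too replicate 6 was highest, and replicate 5, the lowest, was 8.16 times the highest control. The log2 change was 3.46 ± 0.59 (SE, n = 3 each).

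Cldn7 encodes a claudin that also sits on the lateral membrane, where it binds EpCAM (chromosome 11, 69964779 to 69967885, plus strand). Cldn7 had 13.55, 4.89 and 91.6 FPKM in PGC replicates 4 to 6, against 0.99, 0.74 and 0.82 FPKM in control replicates 1 to 3. Replicate 6 stood 6.76 times over replicate 4, a wider gap than the 2.57 times of Cldn3 and the 3.01 times of Cldn4. The log2 change was 3.43 ± 0.85 (SE, n = 3 each).

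Cldn2 encodes a pore for cations and water, known from leaky epithelia such as the kidney proximal tubule and intestinal crypts (chromosome X, 139800828 to 139811386, plus strand). Cldn2 had 4.15, 2.78 and 114.76 FPKM in PGC replicates 4 to 6, against 0.1, 0.07 and 0.01 FPKM in control replicates 1 to 3. Replicate 6 was 27.7 times replicate 4, so that the group's SD on the log2 scale was 2.73, against 1.38 to 2.03 for Cldn3, Cldn4 and Cldn7. The log2 change of Cldn2 was 3.63 ± 1.14 (SE, n = 3 each), and 2.06 without replicate 6. Control values of 0.01 to 0.1 FPKM are a few steps of the 2 decimals deposited, so the size of these ratios is rough. Cldn2 is X-linked and control replicate 3 was the one with Y-linked RNA. Without that library the log2 change was 3.595.

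The 4 changes were of like size under other scalings. They ranged from 3.17 (Cldn7) to 3.96 (Cldn4) when the total was computed without the 50 most abundant genes. With 0.1 in place of 1 added to FPKM they were larger, at 6.51 for Cldn4, 6.17 for Cldn2, 4.58 for Cldn3 and 4.29 for Cldn7. Without replicate 6 they were 2.78 for Cldn3, 3.34 for Cldn4, 2.33 for Cldn7 and 2.06 for Cldn2. The choice of these genes also bears on the values without replicate 6. In bulk tissue, more cells of a type and more RNA per cell cannot be told apart.

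**Figure D1:**
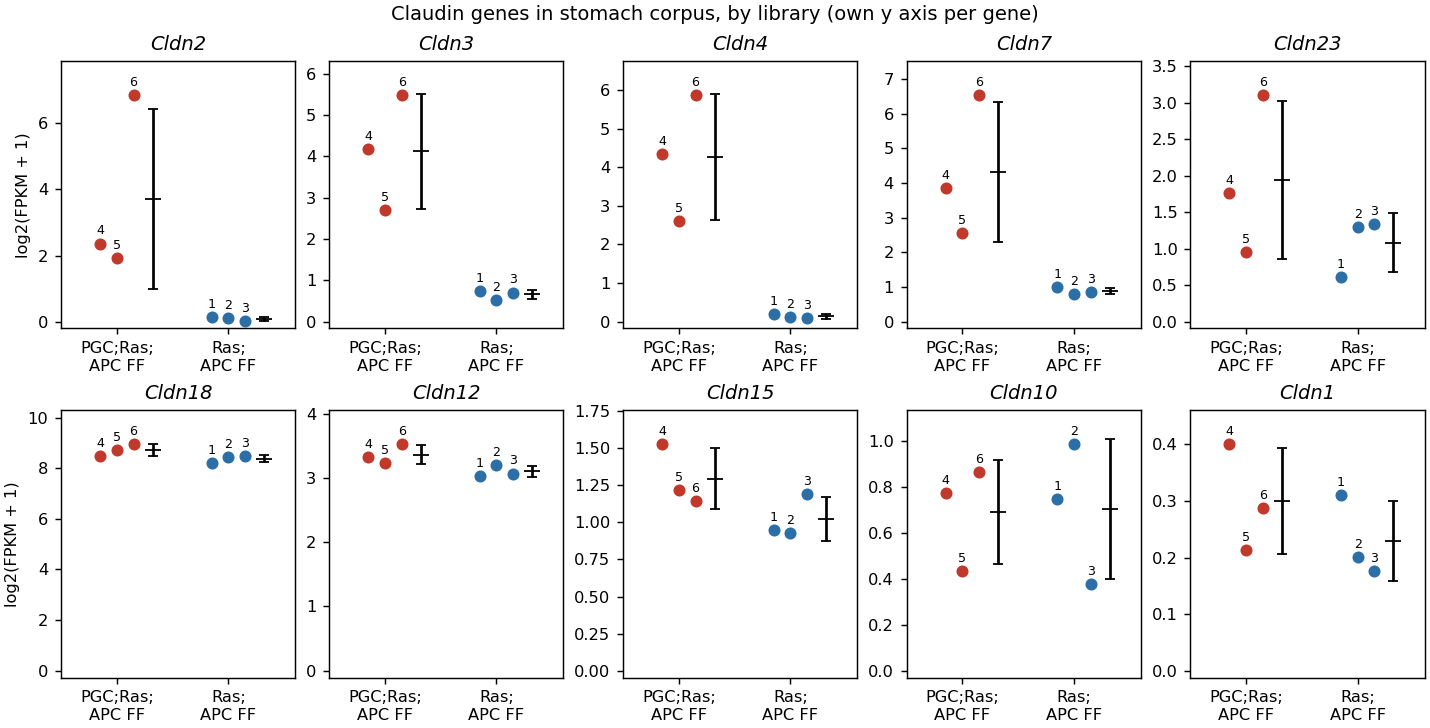
Level of each of the 10 claudin genes as log2(FPKM + 1) in the 3 PGC;Ras;APC FF libraries (red, left) and the 3 Ras;APC FF libraries (blue, right); digits are replicate numbers, black bars the mean and SD, and each gene has its own y axis. Cldn2, Cldn3, Cldn4 and Cldn7 lay near 0 to 1 in Ras;APC FF and well above it in every PGC;Ras;APC FF library, highest in replicate 6.

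For comparison of the 4 genes that were high together in PGC mice, the 300 bases around each start (250 before, 50 from the start) are given from RefSeq, build GRCm38.p6, 5′ to 3′ on the gene's strand. Capitals mark matches on either strand to an AP-1 motif (TGANTCA), the core of TCF/LEF sites (CTTTGA), a GRHL motif (AACCNGTT) or a TATA box (TATAAA). The windows are chrX:139800558-139800857 (plus strand, Cldn2), chr5:134985964-134986263 (plus, Cldn3), chr5:134946885-134947184 (minus, Cldn4) and chr11:69964529-69964828 (plus, the first of 2 starts of Cldn7).
Cldn2: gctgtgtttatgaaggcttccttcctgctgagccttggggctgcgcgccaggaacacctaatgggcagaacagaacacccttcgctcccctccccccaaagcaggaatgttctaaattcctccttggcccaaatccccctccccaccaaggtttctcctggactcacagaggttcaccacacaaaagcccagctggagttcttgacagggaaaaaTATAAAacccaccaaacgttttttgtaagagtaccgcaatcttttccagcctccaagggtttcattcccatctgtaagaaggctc
Cldn3: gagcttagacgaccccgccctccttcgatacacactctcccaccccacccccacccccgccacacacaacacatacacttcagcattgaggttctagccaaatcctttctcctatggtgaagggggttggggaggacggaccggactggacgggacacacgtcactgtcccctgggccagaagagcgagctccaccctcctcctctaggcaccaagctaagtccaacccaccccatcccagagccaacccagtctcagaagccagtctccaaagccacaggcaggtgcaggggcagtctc
Cldn4: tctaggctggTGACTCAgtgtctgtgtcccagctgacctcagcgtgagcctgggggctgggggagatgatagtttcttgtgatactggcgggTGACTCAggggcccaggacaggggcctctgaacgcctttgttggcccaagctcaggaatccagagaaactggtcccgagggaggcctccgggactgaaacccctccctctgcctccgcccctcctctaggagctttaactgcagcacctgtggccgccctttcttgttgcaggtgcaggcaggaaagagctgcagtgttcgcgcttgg
Cldn7: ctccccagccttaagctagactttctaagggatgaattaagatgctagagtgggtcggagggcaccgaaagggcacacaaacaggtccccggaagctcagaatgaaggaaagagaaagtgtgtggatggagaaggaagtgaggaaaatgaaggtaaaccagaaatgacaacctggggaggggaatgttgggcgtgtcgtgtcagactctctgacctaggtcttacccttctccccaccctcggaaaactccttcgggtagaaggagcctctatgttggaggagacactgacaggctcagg
The Cldn4 window held 2 AP-1 matches, both TGACTCA, centred at -236.5 and -154.5 from the start. At least 1 such match was in 7.81% and at least 2 were in 0.46% of all 32851 windows in the RefSeq table. The Cldn2 window held 1 TATAAA, centred at -32, as did 13.6% of all windows at any position. The windows of Cldn3 and Cldn7 held no match to these motifs, and the 3 matches in the other windows do not overlap. A GC box (GGGCGG), not in capitals, was also searched on both strands and was in 35.7% of all windows. It matched once in the Cldn3 window, centred at -233, 2 times in that of Cldn4, at -41 and -2, and not in those of Cldn2 and Cldn7 printed here. Of the 9 claudins with a window, 7 had a GC box match at some start. An AP-1 match was in 2 of the 9, Cldn4 and Cldn15. That of Cldn15, whose FPKM overlapped between the groups, was centred at -210.5. CTTTGA was in none of the 4 printed windows, but in both start windows of Cldn18, centred at -214 and -224, and in 16% of all windows. Whether the 2 Cldn18 matches are 1 site was not checked. Variants of this core were not searched, such as CTTTGT, which stands in the printed Cldn4 window. Of the 10 claudins 9 had a window in the table, none with a GRHL match (2.09% of all windows). A match is a string of letters, and binding was not measured here.

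Cldn18 was by far the most abundant claudin in every library (chromosome 9, 99689461 to 99717267, minus strand). It had 355.84, 422.84 and 492.99 FPKM in PGC replicates 4 to 6, against 295.71, 349.59 and 353.62 FPKM in control replicates 1 to 3. The groups did not overlap, but replicate 4 exceeded control replicate 3 only narrowly. The log2 change was 0.34 ± 0.19 (SE, n = 3 each), beside a median of 0.26 over all 11857 tested genes. With median-of-ratios scaling, which brought that median to -0.0027, the change of Cldn18 was 0.03, and it turned to -0.03 when totals left out the 50 most abundant genes. Cldn18 is known in a gastric and a lung form, and FPKM per gene do not separate these. It has 2 annotated starts, and whether they belong to these 2 forms was not checked.

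Cldn12, whose protein lacks the usual tail that binds ZO proteins, was read at a steady low level (chromosome 5, 5489537 to 5514958, minus strand). It had 8.98, 8.4 and 10.5 FPKM in PGC replicates 4 to 6, against 7.2, 8.2 and 7.38 FPKM in control replicates 1 to 3. The log2 change of 0.26 equalled the median of all tested genes, and was negative (-0.02 to -0.07) with each of the 3 other scalings.

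Cldn23, a claudin of differentiated gut epithelium, had 2.41, 0.93 and 7.61 FPKM in PGC replicates 4 to 6, against 0.53, 1.45 and 1.52 FPKM in control replicates 1 to 3. Replicate 5 lay among the controls. The log2 change was 0.86 ± 0.50 (SE, n = 3 each), and 0.28 without replicate 6.

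The other pore-forming claudins did not share the pattern of Cldn2. Cldn15, the sodium channel claudin of the small intestine, had 1.88, 1.32 and 1.21 FPKM in PGC replicates 4 to 6, against 0.93, 0.9 and 1.28 FPKM in control replicates 1 to 3. Cldn10, whose variants form cation or anion pores, had 0.71, 0.35 and 0.82 FPKM, against 0.68, 0.98 and 0.3 FPKM in controls. Both overlapped between the groups. Cldn1, needed for the barrier of the epidermis, was barely read, with 0.32, 0.16 and 0.22 FPKM in PGC mice and 0.24, 0.15 and 0.13 FPKM in controls. Cldn1 and Cldn10 were under the filter for testing, which was 1 FPKM in at least 3 libraries.

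In all, 6 of the 10 claudins (Cldn2, Cldn3, Cldn4, Cldn7, Cldn12 and Cldn18) had every PGC library above every control, as did 31.9% of all 18988 rows, and none had every library below (5.65% of all rows, and 5.47% of tested genes). For Cldn12 and Cldn18 the direction of the mean flips with scaling. By limma with Benjamini-Hochberg adjustment over 11857 tested genes, 0 of the 8 tested claudins passed 0.05, while 0.152% of tested genes did (13 genes, 0.11%, as higher and 5 genes, 0.0422%, as lower). The split of higher against lower calls moved to 9 against 10 with median-of-ratios scaling, 10 against 10 with quantile normalization and 12 against 10 when totals left out the 50 most abundant genes. At an unadjusted limma p under 0.05 there were 4 of the 8, and 35.4% of tested genes. Cldn2, Cldn3, Cldn4 and Cldn7 passed the filter only through the PGC libraries and therefore had to differ. They are among 167 tested genes below 1 FPKM in all controls. A fit without replicate 6, on genes filtered in all 6 libraries, was added once the data had been seen, and in it these 4 passed as higher, where 8.11% of tested genes did. With 0.1 in place of 1 added to FPKM, Cldn3 and Cldn4 passed, where 0.245% did. No claudin of the 10 passed with no filter (0.0158% of genes higher), a filter at 5 FPKM (0.202%, with 4 of the 10 claudins tested and Cldn2 and Cldn7 not among them), or with median-of-ratios (0.0759%), quantile (0.0843%) or trimmed-total scaling (0.101%). None passed with 1 library left out either, where 0% of tested genes were higher without any 1 control, and 0.0172%, 3.54% and 7.17% without PGC replicates 4, 5 and 6. With any 1 PGC library left out, only 4 of the 10 claudins were tested. Cldn2, Cldn3, Cldn4 and Cldn7 then fell below the filter and could not pass. Since these same values chose the claudins, nothing is read from these counts.

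The order of the 3 PGC libraries was shared too. Replicate 6 exceeded replicate 4, and replicate 4 exceeded replicate 5, in 7 of the 10 claudins (Cldn2, Cldn3, Cldn4, Cldn7, Cldn10, Cldn12 and Cldn23). The same order held for 41.5% of all tested genes.

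The makeup of the claudins shifted accordingly. Summed over all claudin rows, FPKM came to 445, 461 and 840 in PGC replicates 4 to 6, against 315, 369 and 373 in control replicates 1 to 3. Cldn18 held 79.99%, 91.8% and 58.7% of that sum in PGC mice, against 93.9%, 94.7% and 94.9% in controls. Cldn2, Cldn3, Cldn4 and Cldn7 together held 12.1%, 3.99% and 36.6% in PGC mice, against 0.61%, 0.363% and 0.408% in controls. The 4 were not added in equal parts. Cldn2 was at 0.245 and 0.501 times the FPKM of Cldn3 in replicates 4 and 5 but at 2.63 times in replicate 6. Cldn4 stayed near Cldn3, at 1.13, 0.926 and 1.32 times its FPKM in PGC mice, while it was at 0.0952 to 0.221 times in controls.

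**Figure D2:**
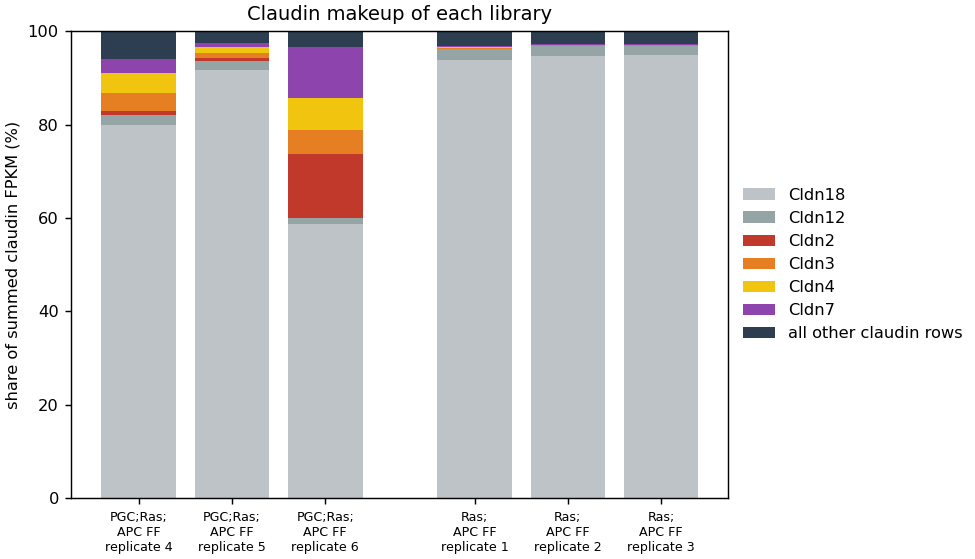
Share of summed claudin FPKM (%, y axis) taken by each claudin in the 3 PGC;Ras;APC FF libraries (left) and the 3 Ras;APC FF libraries (right). Cldn18 held at least 93.9% in Ras;APC FF, and 58.7% in PGC;Ras;APC FF replicate 6, where Cldn2 (13.7%) and Cldn7 (10.9%) were the largest additions.

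Of the 13 other claudin rows, 4 reached 1 FPKM in any library. Cldn5, the claudin of endothelium, had 10.25, 3.02 and 8.65 FPKM in PGC replicates 4 to 6, against 2.21, 1.71 and 2.03 FPKM in control replicates 1 to 3. The groups did not overlap and the log2 change was 1.35 ± 0.36 (SE, n = 3 each), but it missed the threshold (limma adjusted p = 0.085), passing, among the settings tried, only when PGC replicate 5 was left out (limma adjusted p = 0.00328). Of 6 endothelial markers 0 had non-overlapping groups, while 42.7% of tested genes had every PGC library above every control and 5.47% every one below. The summed FPKM of these markers was 39.98 to 51.4 in PGC mice and 40.75 to 44.0 in controls. Pecam1 was at 12.38, 12.33 and 13.16 FPKM against 14.02, 14.37 and 11.06 FPKM. Whether the endothelial share of the tissue bears on Cldn5 was not tested.

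Cldn6, a claudin of embryonic epithelia, had 2.92, 0.89 and 5.53 FPKM in PGC replicates 4 to 6, against 0.09 FPKM in each control library. It was under the filter and not tested. Its neighbour Cldn9 stayed at or under 0.34 FPKM. Cldn8, a claudin of colon and distal nephron, had 5.61, 2.86 and 3.5 FPKM in PGC mice, against 3.61, 3.09 and 2.86 FPKM in controls, which overlapped (limma adjusted p = 0.443). Cldn22 had 1.08, 1.05 and 0.51 FPKM in PGC mice, against 1.22, 1.41 and 1.26 FPKM in controls, each lower than each control but not past the threshold (limma adjusted p = 0.194).

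Genes near the 4 claudins were looked at next, a choice made after their values were seen. Within 100 kb of Cldn2, 2 other protein-coding genes were tested, with log2 changes of 0.05 (Tbc1d8b) and 0.37 (Morc4). Cldn3 and Cldn4 lie 39280 bp apart. Next to Cldn3, Abhd11 had 13.34, 13.29 and 20.33 FPKM in PGC mice, against 8.88, 8.74 and 8.72 FPKM in controls (log2 change 0.74 ± 0.18 SE, limma adjusted p = 0.085). Stx1a and Dnajc30 followed with log2 changes of 0.76 and 0.17. Around Cldn7, 13 neighbours were tested, with log2 changes between -0.96 (Slc2a4) and 0.74 (Eif5a) and a median of 0.32. Elp5, whose 3′ end lies 337 bp from the end of Cldn7 on the opposite strand, had 20.29, 18.44 and 27.08 FPKM in PGC mice, against 12.98, 13.52 and 15.26 FPKM in controls. None of these neighbours passed by limma after adjustment, while only 0.152% of all tested genes did. No neighbour apart from the claudins themselves came near a log2 change of 3, which 32 of all tested genes reached. The labels do not say whether reads were counted by strand.

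**Figure D3:**
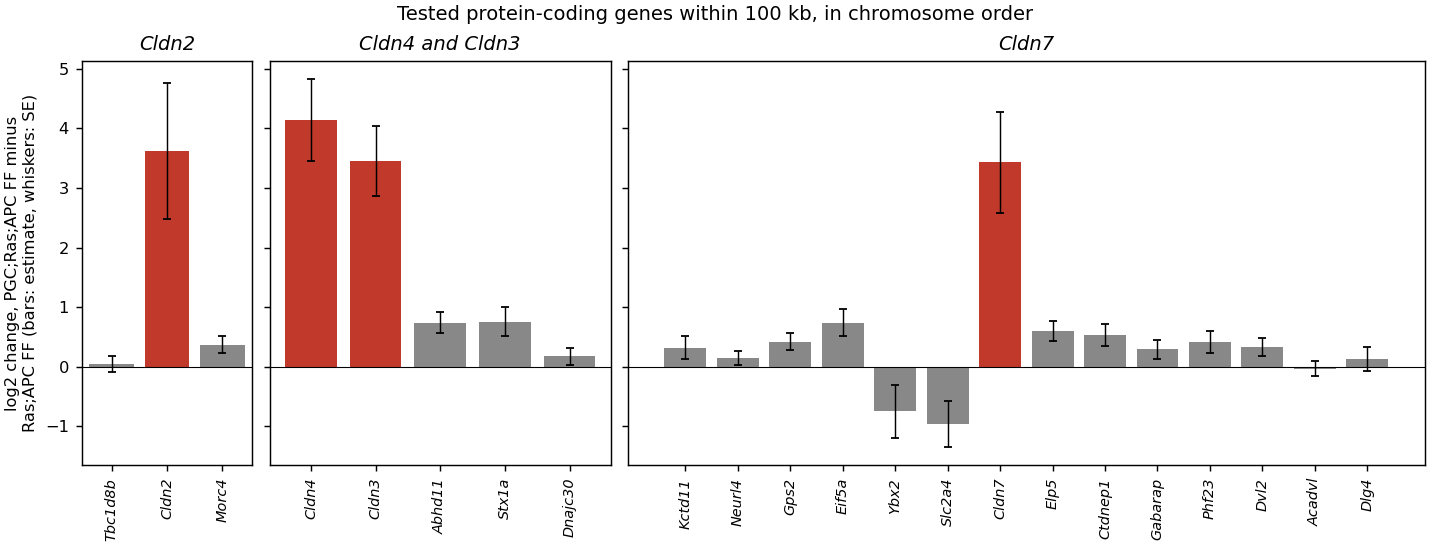
Log2 change, PGC;Ras;APC FF minus Ras;APC FF (y axis; bars are estimates, whiskers SE), of the tested protein-coding genes within 100 kb of Cldn2, of Cldn4 and Cldn3, and of Cldn7, in chromosome order. The claudins (red) reached 3.43 to 4.14, while their neighbours (grey) lay between -0.96 and 0.76.

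Markers common to epithelial cells also had higher values in PGC mice. All 10 pan-epithelial markers had every PGC library above every control, as did 42.7% of tested genes, and their summed FPKM was 4392, 4916 and 6635 in PGC replicates 4 to 6, against 2603, 2989 and 3026 in control replicates 1 to 3. The keratin genes Krt19 and Krt8 had 1679 to 2504 and 1587 to 2118 FPKM in PGC mice, against 929.9 to 1105 and 887.2 to 1123 FPKM in controls. By limma 0 of 10 passed after adjustment and 10 had an unadjusted p under 0.05, as did 35.4% of tested genes. Their mean log2 change was 0.76, and 0.39 to 0.45 with the 3 other scalings, all 10 staying positive. Set against that mean, Cldn4, Cldn2, Cldn3 and Cldn7 were still higher by 3.38, 2.87, 2.70 and 2.68 on the log2 scale. Cldn18 and Cldn12 were lower by comparison, with differences of -0.42 and -0.50, and Cldn23 was close to it at 0.105. With Epcam alone as the yardstick, the 4 remained higher, by 2.11 (Cldn7) to 2.81 (Cldn4).

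**Figure D4:**
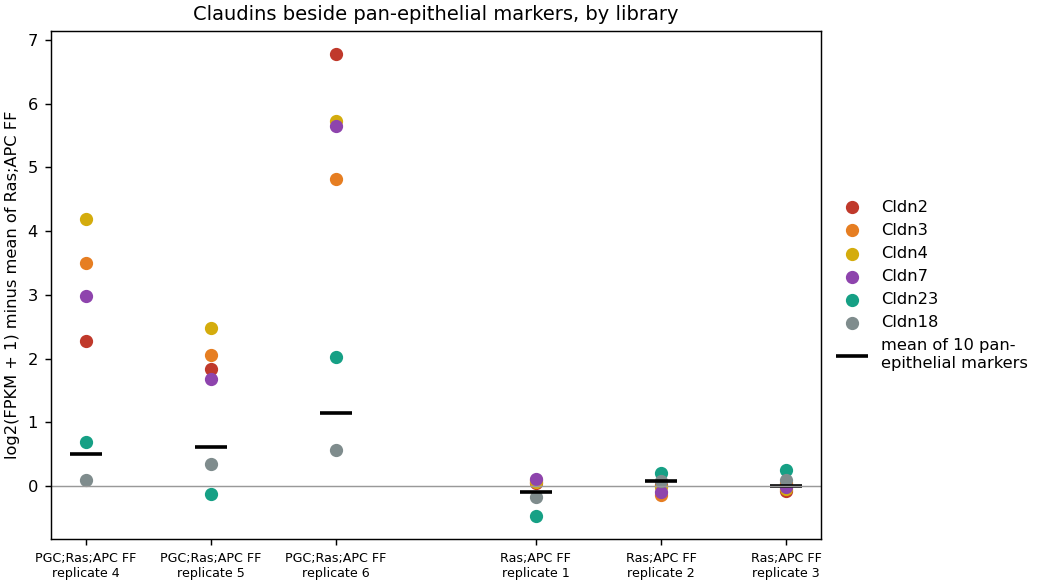
Level of 6 claudins (coloured points) and mean level of 10 pan-epithelial markers (black bars) in each library, as log2(FPKM + 1) minus the Ras;APC FF mean. In each of the 3 PGC;Ras;APC FF libraries (left) Cldn2, Cldn3, Cldn4 and Cldn7 lay above the marker mean (0.51, 0.62 and 1.14) and Cldn18 below it.

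Parietal, chief and surface pit cell markers, which define the corpus, were read in every library. Markers of single cell types differed in summed level as well, and their part in the claudin changes was not tested. Mucous neck cell markers summed to 960, 1203 and 2088 FPKM in PGC replicates 4 to 6, against 500 to 552 in controls, with Agr2 at 827, 983 and 1622 against 399.1 to 492.5 FPKM. Aqp5 of this list, named after its values were seen, had 27.47, 19.18 and 258.34 FPKM, against 2.2 to 2.98 in controls. Its log2 change of 3.84 was of the size seen in the 4 claudins, while Muc6 and Spdef had 0.98 and 0.64. Cftr, under the filter, had 0.78, 1.12 and 21.39 FPKM, against 0.02 to 0.2 in controls. Parietal cell markers summed to 5798, 7479 and 2062 FPKM, against 7628 to 8379 in controls. Smooth muscle markers summed to 1269, 1108 and 860 FPKM, against 1897 to 3438 in controls. Leukocyte markers summed to 126, 59.2 and 196 FPKM, against 47.4 to 100 in controls. Surface pit, chief and endocrine markers summed to 109421 to 122019, 19903 to 106107 and 922 to 3232 FPKM, against 76474 to 148799, 155813 to 206576 and 3290 to 4064 in controls. Of the 7 surface pit markers, 2 had every PGC library above every control, as did 42.7% of tested genes, and 0 every one below. These were Gkn3 (152.32, 458.74 and 2267.09 FPKM, against 84.25 to 100.14) and Tff2 (3567, 3699 and 10906 FPKM, against 1930 to 3029). Most of the chief cell sum was Pgc, with 87455, 78757 and 16059 FPKM in PGC replicates 4 to 6, against 140325 to 194208 in controls. The other chief cell markers did not share its fall in every PGC library. Pga5 had 59.49, 69.54 and 46.7 FPKM, against 30.36 to 39.88 in controls, and Chia1, Gif and Bhlha15 overlapped between the groups. In PGC replicate 6 alone Chia1, Gif and Bhlha15 lay below every control, at 3233.69, 557.97 and 5.31 FPKM. Their lowest control values were 6579.61, 1270.77 and 12.06 FPKM. Peripheral glia markers summed to 2.30 to 8.31 FPKM, against 4.63 to 5.45 in controls.

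Tissues that normally carry Cldn3, Cldn4 and Cldn7 were checked by their defining genes. Squamous forestomach markers summed to 5.28, 4.62 and 15.8 FPKM in PGC replicates 4 to 6, against 0.58 to 1.47 in controls. Krt13 (2.34, 3.01 and 4.63 FPKM, against 0.16 to 0.83) and Ivl (1.14, 0.55 and 8.5 FPKM, against 0 to 0.01) made up most of it in PGC mice. The basal keratins Krt5 and Krt14 and the squamous regulator Trp63 stayed at or under 0.22 FPKM in every library. Intestinal markers summed to 359, 269 and 709 FPKM, against 128 to 179 in controls, most of it the galectin gene Lgals4. Of the 8 markers, 4 had every PGC library above every control, as did 31.9% of all 18988 rows. Lgals4 had 329.62, 240.19 and 629.77 FPKM, against 110.52 to 155.04 in controls. The brush border gene Vil1 had 20.58, 19.1 and 60.22 FPKM, against 9.41 to 12.67 in controls. The alkaline phosphatase gene Alpi had 1.01, 3.26 and 8.46 FPKM, against 0.31 to 0.51 in controls. The cadherin gene Cdh17 had 0.13, 0.04 and 1.06 FPKM, against 0 to 0.02 in controls. Cdx1 and Cdx2, which specify intestine, stayed at or under 0.16 FPKM, and the goblet cell mucin gene Muc2 at or under 0.12 FPKM.

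The rest of the junction was read from 5 lists. Of 70 tested genes in them 0 passed by limma after adjustment, 29 had an unadjusted p under 0.05 (35.4% of all tested genes had one), and their median log2 change was 0.33, beside 0.26 for all tested genes. Without replicate 6, 4 passed as higher (Cd9, Epcam, Lsr and Pvrl2), where 7.17% of tested genes did. With the 3 other scalings the medians of the scaffold and transcription factor lists were negative and those of the other 3 lists stayed positive. No tested gene of the lists had a change of the size seen in Cldn2, Cldn3, Cldn4 and Cldn7.

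Among 10 other membrane proteins of the tight junction the median was 0.42. Lsr, a protein of contacts between 3 cells, had 186.13, 191.74 and 306.69 FPKM in PGC replicates 4 to 6, against 117.98, 124.2 and 129.28 FPKM in control replicates 1 to 3 (log2 change 0.84, limma adjusted p = 0.085). F11r, which encodes the adhesion molecule JAM-A, had a log2 change of 0.43 and Marveld3 one of 0.66 (limma adjusted p = 0.124 and 0.122). Without replicate 6 F11r was at 0.28 and Marveld3 at 0.34, and the median of the list was 0.25. With the 3 other scalings Lsr was at 0.47 to 0.53, F11r at 0.06 to 0.13 and Marveld3 at 0.39 to 0.43, and the list median at 0.07 to 0.14. Occludin (Ocln), named after its values were seen, had 17.28, 18.3 and 24.52 FPKM against 16.83, 23.37 and 20.75 FPKM in controls, which overlapped.

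For 18 scaffold and polarity genes the median was 0.08, and -0.24 to -0.19 with the other scalings. Tjp3, which encodes ZO-3, had 59.88, 61.06 and 88.65 FPKM in PGC mice, against 42.43, 48.5 and 44.24 FPKM in controls (log2 change 0.60, limma adjusted p = 0.0909), and Ybx3, a ZO-1 partner, had a log2 change of 0.59 (limma adjusted p = 0.0908). With the 3 other scalings both lay between 0.23 and 0.29. Tjp1, which encodes ZO-1 and was named after its values were seen, had 16.03, 14.43 and 19.39 FPKM, against 13.26, 17.8 and 12.36 FPKM in controls, which overlapped.

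All 9 adherens junction genes had a positive log2 change (median 0.60), as had 9558 of all 11857 tested genes. With totals that left out the 50 most abundant genes, 8 of the 9 were positive (median 0.26), and without replicate 6 the median was 0.40. They included Cdh1 (E-cadherin, 0.62), Ctnnb1 (beta-catenin, 0.66) and the nectin gene Pvrl2 (0.75), with limma adjusted p of 0.0857, 0.11 and 0.0938. With the 3 other scalings these 3 lay between 0.26 (Cdh1) and 0.45 (Pvrl2), and without replicate 6 Ctnnb1 was at 0.40 and Pvrl2 at 0.47. Of the 9, 7 had every PGC library above every control, as did 42.7% of tested genes.

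Among 12 tested partners and turnover proteins (median 0.46) was Epcam, whose protein binds and stabilises claudin-7. Epcam had 104.05, 111.69 and 293.21 FPKM in PGC replicates 4 to 6, against 68.55, 66.57 and 46.28 FPKM in control replicates 1 to 3 (log2 change 1.32, limma adjusted p = 0.0901). The tetraspanin gene Cd9 followed with 1.01, the protease inhibitor gene Spint2 with 0.80 and the tetraspanin gene Cd81 with 0.55 (limma adjusted p of 0.0938, 0.0997 and 0.139). Without replicate 6 the log2 changes were 0.85 for Epcam, 0.61 for Cd9, 0.52 for Spint2 and 0.27 for Cd81, and the median of the list was 0.27. With the 3 other scalings Cd9 was at 0.65 to 0.70, Spint2 at 0.33 to 0.49, Cd81 at 0.18 to 0.24 and the list median at 0.09 to 0.15.

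For 21 tested transcription factors known to act on claudin genes the median was 0.20, and -0.17 to -0.11 with the other scalings. The epithelial factors Elf3, Klf5 and Klf4 had log2 changes of 0.53, 0.69 and 0.00 (limma adjusted p of 0.136, 0.133 and 0.987), and that of Klf4 was negative with the other scalings. Elf3 was at 0.16 to 0.22 and Klf5 at 0.33 to 0.39 with those scalings, and at 0.28 and 0.45 without replicate 6. Grhl2, which acts on Cldn4 and was named after its values were seen, had 5.00, 4.64 and 7.65 FPKM in PGC mice, against 4.47, 5.83 and 4.09 FPKM in controls, which overlapped.

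**Figure D5:**
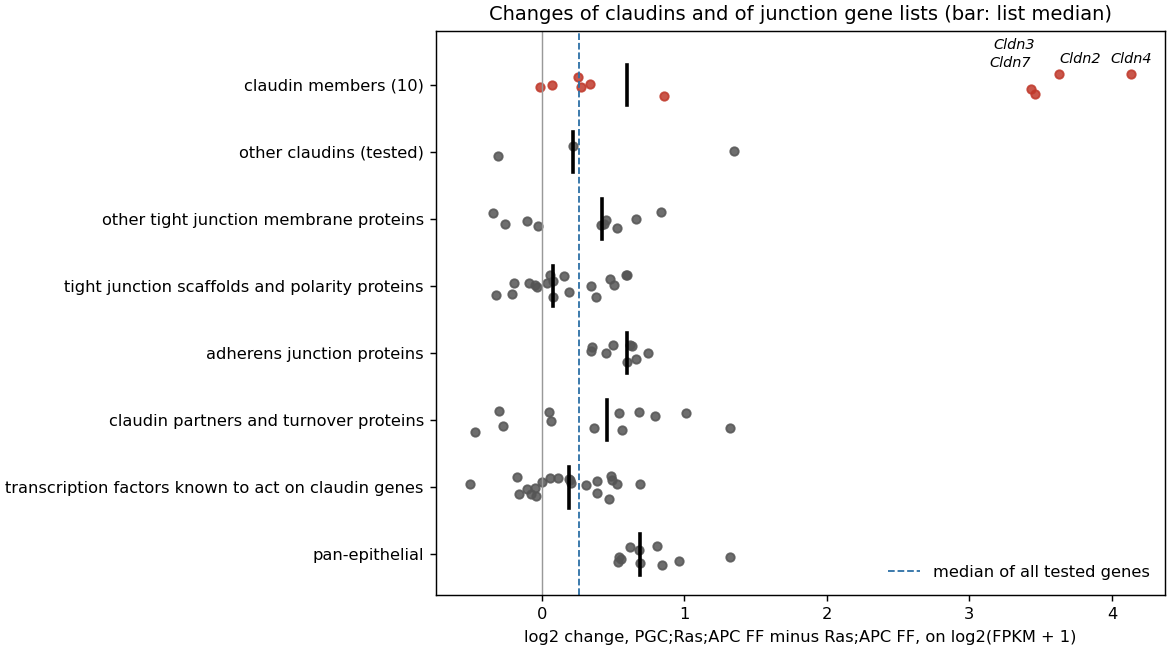
Log2 change, PGC;Ras;APC FF minus Ras;APC FF on log2(FPKM + 1) (x axis), of the 10 claudins (red), the other tested claudins and the tested genes of each list (grey), with list medians as black bars and the median of all tested genes (0.26) as a dashed line. Cldn2, Cldn3, Cldn4 and Cldn7 stand apart at 3.43 to 4.14, and no gene of the junction lists exceeds 1.32.

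Genes with the most similar course over the 6 libraries were sought by the root mean square difference of log2(FPKM + 1) after the control mean was subtracted. Closest to Cldn4 was Mmp10, a stromelysin gene, with 17.34, 5.09 and 56.5 FPKM in PGC mice, against 0.09, 0.03 and 0.16 FPKM in controls (difference 0.0867). Alox15, an arachidonate lipoxygenase gene (0.23), and Gulo, a gene of ascorbate synthesis (0.313), came next, and 2 of 11856 genes lay within 0.25. Closest to Cldn18 were Gas2l1, Tnks1bp1 and the antiproliferative gene Btg2 (0.0363, 0.0377 and 0.0377), but 6438 genes lay within 0.25 of Cldn18, so its course was a common one.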

How the data were processed

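The authors deposited 1 table of FPKM for 6 libraries, with 2 decimals. STAR, featureCounts and the build mm10 are named in the submitters' processing notes. How FPKM were derived, tool versions, annotation and strand setting are not stated there or in the labels. Groups and replicate numbers came from the sample titles.

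FPKM were analysed as log2(FPKM + 1), which understates changes of low genes. Genes with at least 1 FPKM in at least 3 libraries were fitted with limma 3.58.1 (R 4.3.3; eBayes with trend, genotype as the 1 term, two-sided), tested on simulated data, with Benjamini-Hochberg adjustment over 11857 genes and a threshold of 0.05. An exact test of 3 against 3 cannot go under 0.1. Short genes' FPKM did not resolve into whole reads (at best 44.6% to 52.9% of values per library within 0.15 of a whole number), so depth is unknown and no counting interval is given. Coordinates are from GENCODE M21 (GRCm38, the assembly of mm10) by symbol.

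The members and lists were chosen with earlier results of these data known. Named were all members, other claudins reaching 1 FPKM, and per list the 2 most abundant and 2 most changed tested genes (marker lists: the 2 most abundant; the text gives some by their sum). Alternatives covered the pseudocount, filter, scaling, each library left out, and the epithelial reference.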

Additional observations from a re-analysis of the deposited data

How the results depend on the processing

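The number of genes called over the whole table, 13 higher and 5 lower by limma, moved with the settings. It was 29 higher with a pseudocount of 0.1 and 3 higher with no filter, and 10 lower with each of the 3 other scalings (median-of-ratios, quantile, totals that left out the 50 most abundant genes). Leaving out 1 library gave 0 to 832 higher (0 without any 1 control, 2 without replicate 4, 413 without replicate 5, 832 without replicate 6) and 0 to 106 lower. Without replicate 6 but with genes filtered over all libraries, chosen after seeing the data, it was 962 higher and 114 lower. The claudins called higher, 0 in the fit to all libraries, were 2 with a pseudocount of 0.1, 0 without any 1 library, and 4 with that added filter. Leaving out any 1 PGC;Ras;APC FF library takes Cldn2, Cldn3, Cldn4 and Cldn7 below the filter. The junction genes called higher were 0 to 4 with 1 library left out and 4 with the added filter, and the other claudins called higher were 0 to 1 with 1 library left out. The median log2 change over all 10 claudins was 0.60. It was 0.31 to 0.85 with 1 library left out and -0.16 relative to the pan-epithelial markers, where it was -0.27 to 0.02 with 1 library left out, and -0.72 relative to Epcam alone. Klf4 had changes of -0.30, -0.35 and -0.36 and Cldn8 of -0.0196, -0.023 and -0.0638 with the 3 scalings, against 0.00 and 0.22 as deposited. With 1 library left out Klf4 ranged from -0.15 to 0.0921 and Cldn8 from -0.0026 to 0.39. Of 570 values of the 52 named genes under the alternatives, 530 kept their direction and call or, for the 10 claudins and the cell type markers, stayed within 1 SD, while 22 moved, 9 newly passed the threshold, 0 lost it and 9 reversed. The cause of these shifts was not tested. No paired analysis was possible because the groups share no replicate number. Depth being unknown, values under about 0.1 FPKM are not distinguished from each other.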
